A study of Mus musculus with 8 samples.

Results

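Glycolysis and hypoxia genes are described here in mouse leukemias with intact or truncated Miz1. The set holds 36 genes, named by symbol and matched to the Ensembl identifiers of the count files. It is made of 19 glycolytic enzyme genes, 4 glucose and lactate transporter genes, 5 regulatory kinase genes and 8 genes of the hypoxia response. All 36 matched 1 identifier each, out of 41214 genes in the files, of which 27639 had a count. All 36 also passed the filter on low counts that left 16456 genes to be tested.

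Glycolysis turns glucose into pyruvate in the cytosol, and lactate dehydrogenase turns pyruvate into lactate, which leaves the cell through monocarboxylate transporters. Most steps can be run by several isoenzymes that are encoded by different genes and differ between tissues, so which gene a cell uses is a mark of its type as well as of its metabolic state. When oxygen is low, prolyl hydroxylases stop marking HIF-1alpha for destruction, and the stabilised factor switches on glycolytic genes, glucose transporters and genes such as Vegfa. Myc switches on many of the same glycolytic genes, and rapidly dividing lymphoid tumours are known for high glucose use.

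The data are messenger RNA libraries of 8 spleen tumours, each from a different C57Bl6 mouse, in 4 groups of 2. The labels name a B cell tumour with Miz1 wt (B wt), a B cell tumour with Miz1 deltaPOZ (B deltaPOZ), a CD4+ T cell tumour with Miz1 wt (T wt) and a CD4+ T cell tumour with Miz1 deltaPOZ (T deltaPOZ). Miz1, the product of Zbtb17, is a zinc finger factor that binds Myc, and deltaPOZ lacks the domain through which its molecules join. The labels do not give the animals' age, the driver of the deletion or what started the tumours. Names of the deposited data carry a run number, which is the same in every B library and another in every T library, so run and lineage cannot be told apart. They also carry the tag Notch in all T libraries and the tag ENU in T deltaPOZ alone, so in T the tag ENU and the genotype cannot be told apart. Xist was high in B wt and Ddx3y in B deltaPOZ, so sex and genotype cannot be told apart in B either. Among the T libraries Xist was high in T wt 1 alone, where Ddx3y was lowest, so sex was not balanced between the T genotypes. Numbers 1 and 2 only name the libraries of a group.

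The libraries held 44.3 to 58.3 M gene counts. Summed markers of B cells lay at 1818 to 2868 CPM (gene counts scaled to library size) in the B libraries and at 25.4 to 137 in the T libraries, and those of T cells at 19.5 to 66.7 CPM in B and 2447 to 4839 CPM in T. The T libraries held Cd4 at 98.8 to 432 CPM and also Cd8a at 356 to 1246 CPM, although the label names CD4+ cells. Libraries B wt 2, T wt 1 and T deltaPOZ 2 stood apart: neutrophil markers summed to 746 CPM in B wt 2 and 868 CPM in T wt 1, and T deltaPOZ 2 had counts in 25387 genes. Zbtb17 lay at 36.9 to 66.1 CPM over all libraries, and a count per gene does not check the allele. In bulk tumours, fewer cells of a type and less RNA per cell cannot be told apart.

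The promoters of 5 members whose levels the results turn on are printed first, because HIF-1 and Myc bind short DNA motifs. HIF-1 sites hold the core ACGTG or GCGTG, and Myc binds the E-box CACGTG, which contains ACGTG. Each line gives 250 bases before a RefSeq start (GRCm38.p6), 5′ to 3′ on the strand of the gene, and capitals mark ACGTG on either strand. The windows are Hk2 at chr6:82774455-82774704 (minus strand), Ldha at chr7:46845554-46845803 (plus), Eno1 at chr4:150236458-150236707 (plus), Bnip3 at chr7:138909507-138909756 (minus) and Egln3 at chr12:54203875-54204124 (minus). Hk2, Bnip3 and Egln3 differed between the lineages, and Eno1 and Ldha are among the enzymes that lay highest in B deltaPOZ.
Hk2: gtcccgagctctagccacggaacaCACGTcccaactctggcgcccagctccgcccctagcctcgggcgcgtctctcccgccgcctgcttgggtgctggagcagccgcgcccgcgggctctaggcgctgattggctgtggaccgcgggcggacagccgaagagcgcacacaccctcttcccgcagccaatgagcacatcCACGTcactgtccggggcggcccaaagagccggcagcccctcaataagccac
Ldha: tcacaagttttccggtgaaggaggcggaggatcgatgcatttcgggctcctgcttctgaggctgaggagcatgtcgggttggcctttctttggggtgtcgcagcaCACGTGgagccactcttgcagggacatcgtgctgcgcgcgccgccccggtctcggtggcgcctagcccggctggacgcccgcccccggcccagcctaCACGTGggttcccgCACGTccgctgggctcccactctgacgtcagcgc
Eno1: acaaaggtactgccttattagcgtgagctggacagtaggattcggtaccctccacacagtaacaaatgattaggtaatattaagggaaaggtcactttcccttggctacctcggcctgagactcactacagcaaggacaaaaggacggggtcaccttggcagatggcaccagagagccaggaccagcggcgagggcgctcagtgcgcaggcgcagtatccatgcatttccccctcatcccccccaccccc
Bnip3: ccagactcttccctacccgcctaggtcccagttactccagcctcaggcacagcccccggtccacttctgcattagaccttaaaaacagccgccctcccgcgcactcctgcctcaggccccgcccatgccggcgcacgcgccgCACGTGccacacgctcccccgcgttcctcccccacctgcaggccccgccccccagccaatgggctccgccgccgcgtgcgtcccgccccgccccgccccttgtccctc
Egln3: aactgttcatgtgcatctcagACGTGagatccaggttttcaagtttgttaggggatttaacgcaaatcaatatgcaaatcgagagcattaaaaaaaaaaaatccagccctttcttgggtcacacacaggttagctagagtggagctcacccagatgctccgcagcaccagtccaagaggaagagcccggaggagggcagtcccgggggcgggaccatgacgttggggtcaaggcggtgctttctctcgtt

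The Ldha window held the E-box in 2 places, with first bases 145 and 48 bases before the start, and a further ACGTG at 34 bases. Bnip3 held 1 E-box, Hk2 held ACGTG at 226 and 52 bases before the start, and Egln3 held it at 229 bases. The Eno1 window held no ACGTG and a single GCGTG at 230 bases. Over the whole set, 35 of 36 members had a window in the RefSeq table (not Slc2a3), in 51 windows counted with 50 bases after each start. ACGTG was found in 29 of the 51 windows (56.9%) against 19.6% of all 32851 windows, and GCGTG in 58.8% against 32.4%. The E-box was found in 7 member windows (13.7%) against 7.15% of all. Member windows were richer in G and C (median 62.0% against 52.7%). Among windows of 60 to 70% GC, ACGTG stood in 16 of 23 member windows (69.6%) and in 27.3% of all windows, and among those of 50 to 60% GC in 5 of 19 (26.3%) and 20.8%. These matches are letters in a window and do not show binding.

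More members were called between the lineages than between the genotypes. Between T and B tumours, over both genotypes, 19 of 36 members passed edgeR's quasi-likelihood test at an adjusted p under 0.05, where 35.3% of all tested genes did. Of these, 5 were higher in T (19.3% of all genes) and 14 were lower in T (16% of all genes). Higher in T were Hk1, Pfkm, Ldhb, Egln1 and Egln3. Lower in T were Hk2, Pfkl, Aldoc, Tpi1, Pgk1, Pgam1, Eno1, Pkm, Ldha, Slc2a1, Pfkfb3, Pdk1, Vegfa and Bnip3. At an unadjusted p under 0.05 stood 25 members (46.6% of all genes), 9 higher in T (25%) and 16 lower (21.6%). All T libraries lay above all B libraries for 3 members (20.1% of all genes) and below them for 8 (17%). The median log2 difference of the 36 was -0.12, beside 0.050 over all tested genes. With each library left out in turn, 12 members kept the call every time: Hk1, Hk2, Tpi1, Pgam1, Eno1, Ldha, Ldhb, Slc2a1, Pfkfb3, Vegfa, Bnip3 and Egln3. The other 7 lost it under 5 to 7 of the 8 libraries, with highest adjusted p values of 0.147 for Pgk1, 0.125 for Aldoc, 0.115 for Egln1, 0.106 for Pfkl, 0.0930 for Pfkm, 0.0876 for Pdk1 and 0.0779 for Pkm in edgeR. Without the 3 libraries that stood apart, 8 members passed (7.9% of all genes): Hk1, Hk2, Eno1, Ldhb, Pfkfb3, Vegfa, Bnip3 and Egln3.

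**Figure D1:**
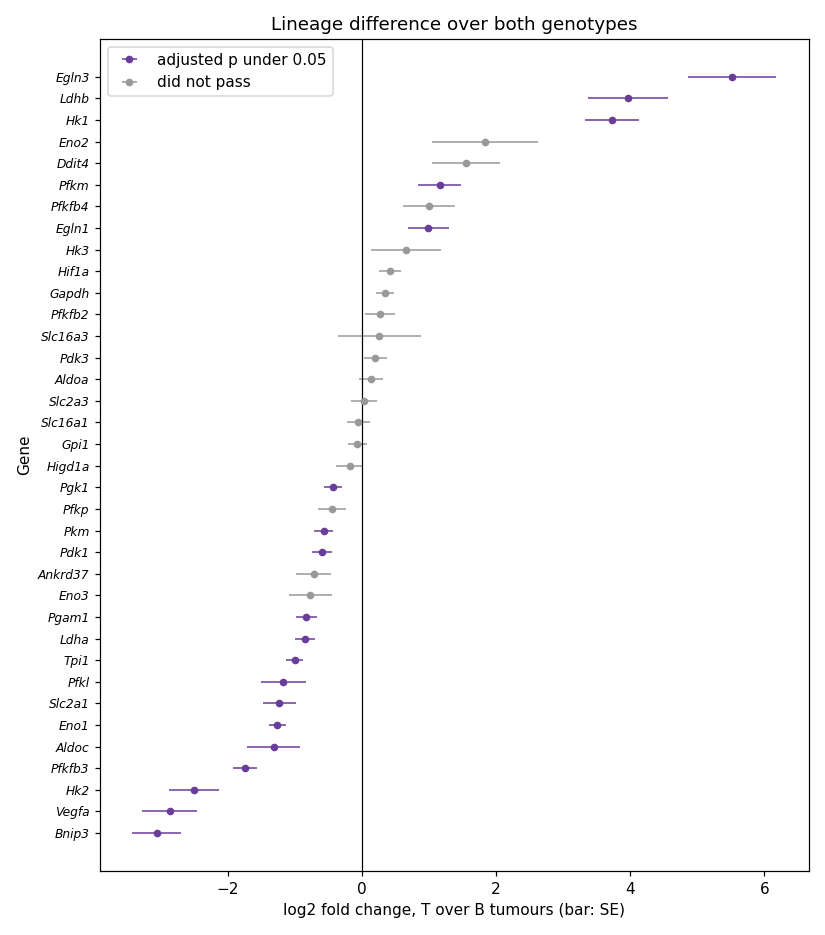
Log2 fold change of each of the 36 genes between T and B tumours over both genotypes (x axis; bars are the SE), ordered by size. Egln3 (5.52), Ldhb (3.97) and Hk1 (3.73) lie farthest to the right and Bnip3 (-3.05), Vegfa (-2.87) and Hk2 (-2.50) farthest to the left; purple points passed an adjusted p under 0.05 in edgeR.

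No member passed between deltaPOZ and wt. In B tumours edgeR called 0 of 36, beside 0.00608% of all genes, and 8 members had an unadjusted p under 0.05 (12.1% of all genes), 6 of them higher (5.68%) and 2 lower (6.45%). DESeq2 called 2 members in B, Eno1 and Pgam1 (4.18% of all genes), and limma-voom 0 (0.0365%). In T tumours edgeR called 0, beside 0% of all genes, with 3 members at an unadjusted p under 0.05 (2.65% of all genes), 2 higher (1.3%) and 1 lower (1.35%). DESeq2 called Ldhb alone in T (0.298% of all genes) and limma-voom 0 (0%). The mean effect of the lineages gave 0 calls in edgeR (0% of all genes) and 8 members at an unadjusted p under 0.05 (8.9%), of which 6 were higher (4.19%) and 2 lower (4.71%), while DESeq2 called 3 (1.93%) and limma-voom 0 (0%). The difference of the effects, T minus B, gave 0 calls in edgeR (0% of all genes), 4 members at an unadjusted p under 0.05 (6.26%; 2 higher, 3.65%, and 2 lower, 2.61%) and 0 calls in DESeq2 (1.38%) and limma-voom (0%). On counts simulated from these libraries, the recovery by edgeR was 1.49% at a 2-fold change, 43.3% at 4-fold and 75.8% at 8-fold for B, and 0, 40.3 and 57.6% for T. DESeq2 recovered 14.9, 61.2 and 95.5% for B, and 16.4, 77.6 and 83.3% for T. Recovery was higher for T against B, which uses all 8 libraries. There edgeR recovered 16.4, 76.1 and 84.8%, and DESeq2 43.3, 86.6 and 97.0%. Most simulated 2-fold changes were thus missed. The changed genes were drawn at random from the tested genes with a mean above 1 CPM, so these shares do not give the recovery of a member.

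The signs of the genotype differences were counted by role, without a test between roles. In B, 24 of 36 members had a positive log2 fold change of deltaPOZ over wt, beside 48.1% of all genes, with a median of 0.38 (all genes -0.0090). Of the 19 enzymes 16 were positive (median 0.48), whereas of the 8 hypoxia genes 2 were (median -0.55). In T, 24 of 36 were also positive, beside 49.8% of all genes, with a median of 0.16 (all genes -9.5e-05); these were 12 of 19 enzymes (median 0.17) and 8 of 8 hypoxia genes (median 0.19). Outside the set, 37 other hypoxia genes were tested. Of these, 18 were positive in B (median -0.0095) and 16 in T (median -0.091), so the signs of the 8 hypoxia members were not shared by that list. In B both deltaPOZ libraries lay above both wt libraries for 15 members (19.9% of all genes) and below them for 6 (19.1%). In T they lay above for 8 (15.4%) and below for 4 (17%). Tpi1, Pgam1, Eno1, Pkm and Ldha lay above wt without overlap in both lineages (3.6% of all genes did), and Pfkfb3 lay below in both (4.42%). Pdk1 and Hif1a stood apart in opposite directions (4.64% of all genes). The sign in B held in every other setting tried for 28 of 36 members, and in T for 18. Of the 8 hypoxia members, Hif1a alone held its sign in T, so their shared positive sign there was not stable. In B, the signs of Vegfa, Egln1 and Higd1a changed.

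**Figure D2:**
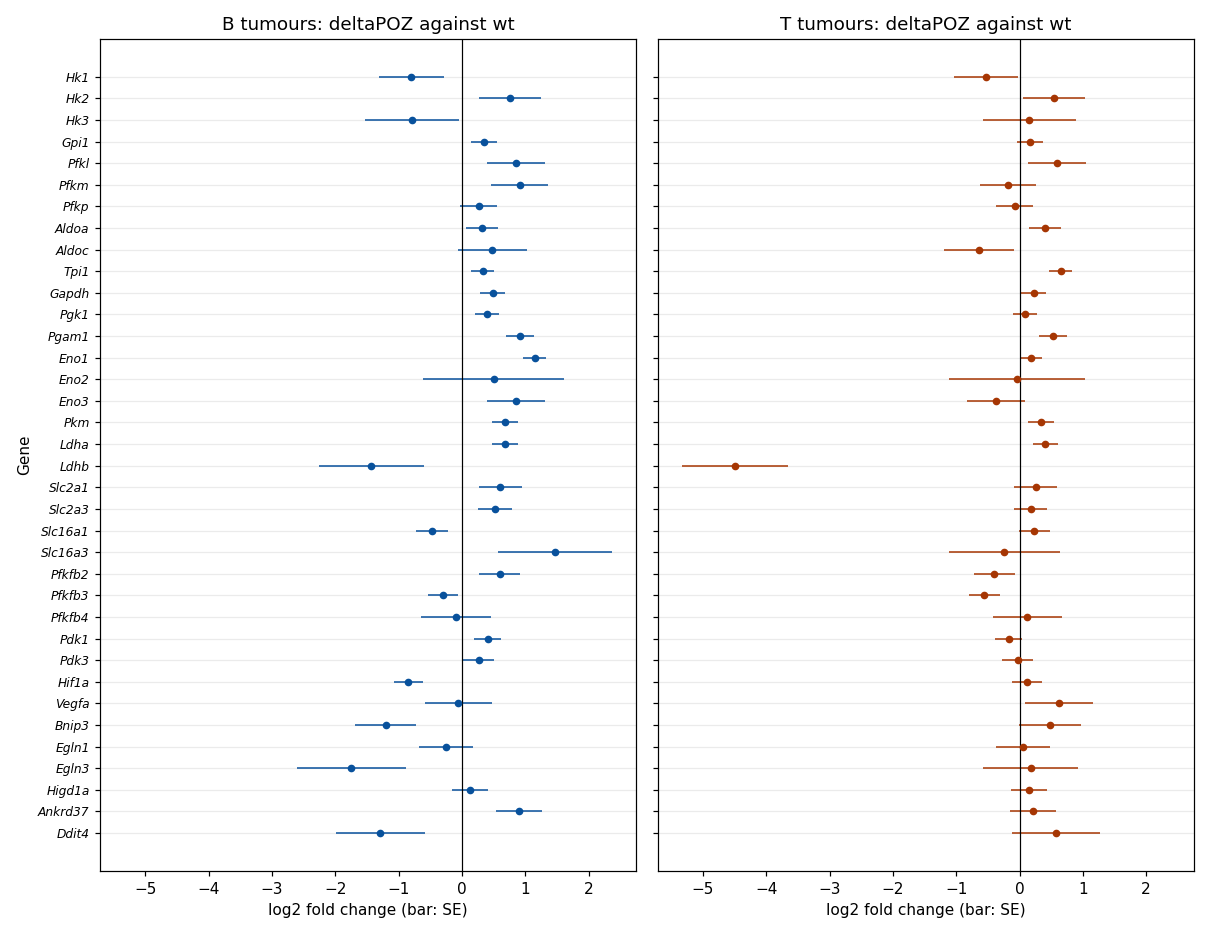
Log2 fold change of deltaPOZ over wt (x axis, the same in both panels; bars are the SE) for each member in B tumours (left) and T tumours (right). Most enzyme genes lie right of 0 in B, Hif1a, Bnip3, Egln3 and Ddit4 lie left of 0 in B and right of it in T, and Ldhb lies at -4.50 in T. The T signs of Bnip3, Egln3 and Ddit4 changed in some of the other settings tried.

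Hexokinase, which traps glucose in the cell as glucose-6-phosphate, was supplied by different genes in the lineages. Hk2, the inducible form of many tumours, lay at 45.6 and 107 CPM in the B wt pair against 134 and 123 in the deltaPOZ pair, and at 10.7 and 18.3 in the T wt pair against 27.9 and 14.4 in the deltaPOZ pair. Every B library lay above every T library. Hk2 was 5.66-fold lower in T (log2 -2.50, SE 0.37, edgeR adjusted p = 0.00376). Hk1, the form of most resting tissues and of red cells, lay at 15.8, 12.1, 12.1 and 4.01 CPM in B wt 1, B wt 2, B deltaPOZ 1 and B deltaPOZ 2, and at 120, 218, 109 and 126 CPM in the T libraries in the same order. Here too the lineages did not overlap, in the opposite direction. Hk1 was 13.3-fold higher in T (log2 3.73, SE 0.40, edgeR adjusted p = 0.0014). Hk3, best known from myeloid cells, lay at 1.12 to 5.67 CPM over all libraries and did not pass (log2 0.66, SE 0.53).

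Per kb of exon, Hk2 made up 77.3 to 96.4% of hexokinase RNA in B and 10.3 to 24.9% in T. Hk1 made up 2.2 to 18.8% in B and 68.1 to 86.3% in T. Summed over the 3 genes, the step lay at 62.8 to 150 CPM in B and 135 to 240 CPM in T, with overlap. Erythroid markers differed between the lineages in the same direction as Hk1. All 10 genes of that list, with haemoglobin, Alas2 and Slc4a1 among them, were higher in every T library than in every B library and summed to 9.22 to 225 CPM in B and 5115 to 24860 CPM in T. None was at 0 in every library, and the sum was highest in T wt 2, where Hk1 was highest too. Within a lineage the order differed elsewhere. In B the sum was highest in B deltaPOZ 2, where Hk1 was lowest. In T the sum was lowest in T wt 1, and Hk1 in T deltaPOZ 1. The part of erythroid cells in the Hk1 level was not tested.

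**Figure D3:**
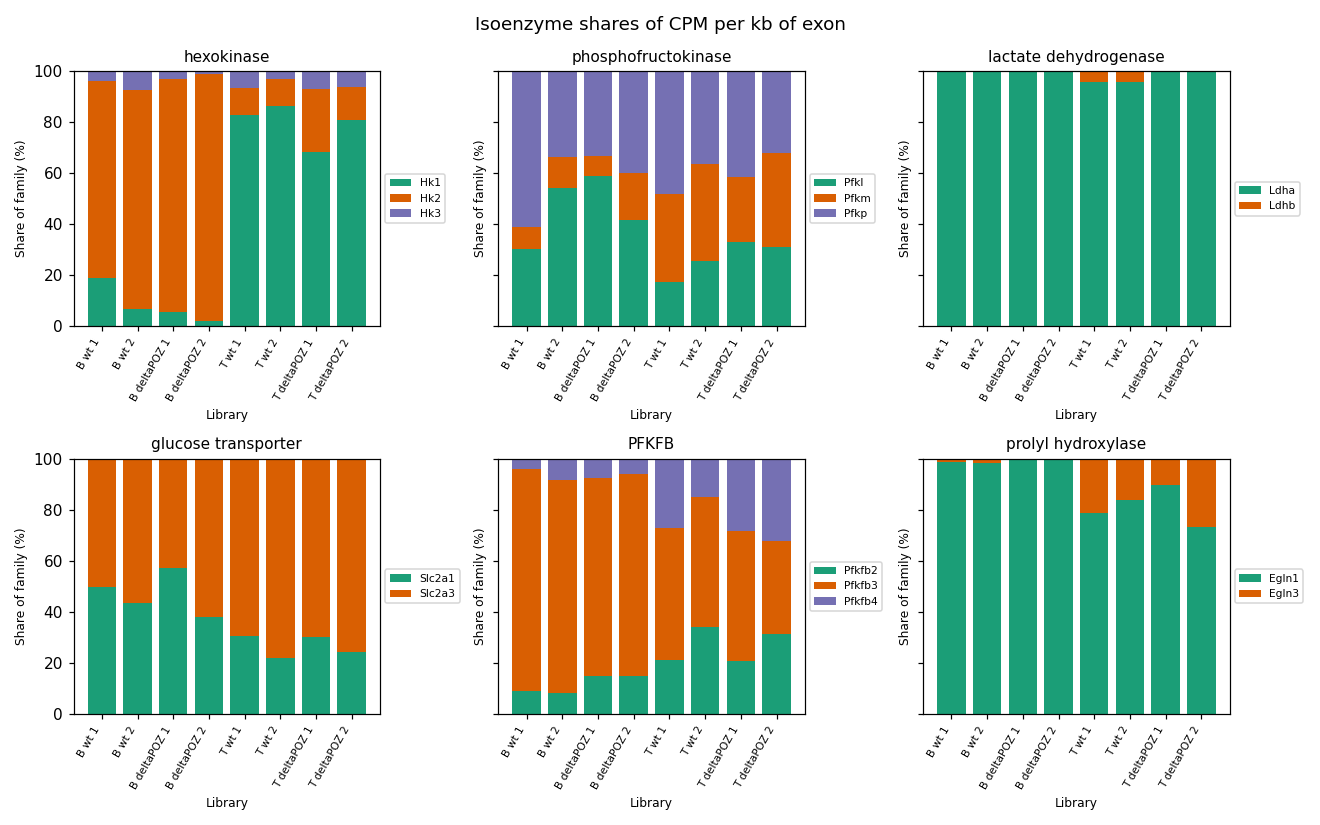
Share of each isoenzyme in its family (y axis, percent of CPM per kb of exon) in each of the 8 libraries, for 6 families. Hk2 fills 77.3 to 96.4% of the hexokinase bar in B and 10.3 to 24.9% in T, and Ldhb is visible in the T wt libraries only, at 4.2 to 4.28%.

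Phosphofructokinase, which commits sugar to glycolysis, was shared among 3 genes in every library. Pfkl, the liver form, lay at 68.8 and 137 CPM in the B wt pair against 222 and 150 in the deltaPOZ pair, and at 31.6, 68.6, 84.5 and 66.7 CPM in T wt 1, T wt 2, T deltaPOZ 1 and T deltaPOZ 2. Pfkl was lower in T (log2 -1.17, SE 0.33, edgeR adjusted p = 0.0328), with overlap between B wt 1 and 1 T library. Pfkm, the muscle form, lay at 10.1 to 32.9 CPM in B and 31.4 to 51 in T and was higher in T (log2 1.16, SE 0.32, edgeR adjusted p = 0.0299). Its share per kb was 7.73 to 18.3% in B and 25.6 to 38% in T, without overlap. With exon lengths from the basic transcript set it was 3.86 to 9.26% in B and 13.2 to 21% in T, again without overlap. Pfkp, the platelet form, lay at 139 to 289 CPM and did not pass (log2 -0.45, SE 0.21).

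Tpi1, Pgam1, Eno1, Pkm and Ldha had their highest group mean in B deltaPOZ, whereas Gapdh had it in T deltaPOZ (335 CPM, against 288 in B deltaPOZ). Eno1, the ubiquitous enolase, lay at 406 and 491 CPM in the B wt pair against 1045 and 942 in the deltaPOZ pair, and at 271, 252, 318 and 277 CPM in T wt 1, T wt 2, T deltaPOZ 1 and T deltaPOZ 2. Both deltaPOZ libraries lay above both wt libraries in each lineage, by a wide gap in B and a narrow gap in T. In B the log2 fold change was 1.15 (SE 0.18, edgeR adjusted p = 0.124, DESeq2 adjusted p = 2.86e-06) and in T 0.19 (SE 0.17). The difference of these effects was -0.96 (SE 0.25, edgeR adjusted p = 0.637, unadjusted p = 0.00621). Eno1 lies on chromosome 4, where the median over the 205 tested genes within 10 Mb was 0.57 in B, and 0.58 of the Eno1 value remained above that. Eno1 was also lower in T than in B (log2 -1.26, SE 0.13, edgeR adjusted p = 0.00112).

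Pgam1, the mutase that moves the phosphate on phosphoglycerate, lay at 52.8 and 64.3 CPM in the B wt pair against 108 and 112 in the deltaPOZ pair, and at 34.4 and 41.2 in the T wt pair against 62.3 and 46.3 in the deltaPOZ pair. The groups did not overlap in either lineage. Its log2 fold change was 0.91 in B (SE 0.22, edgeR adjusted p = 0.26, DESeq2 adjusted p = 0.0150) and 0.52 in T (SE 0.22, edgeR adjusted p = 1). Tpi1, triosephosphate isomerase, lay at 443 and 433 CPM in the B wt pair against 584 and 516 in the deltaPOZ pair, 185 and 208 in the T wt pair against 344 and 271 in the deltaPOZ pair. It stood apart by genotype in both lineages and by lineage over all libraries. Its log2 fold change was 0.33 in B (SE 0.18) and 0.65 in T (SE 0.18), and Tpi1 was lower in T (log2 -0.999, SE 0.13, edgeR adjusted p = 0.00243).

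Pkm, the pyruvate kinase of dividing cells, lay at 975 and 1121 CPM in the B wt pair against 1634 and 1721 in the deltaPOZ pair, and at 928, 659, 1034 and 976 CPM in the T libraries. Ldha, which makes lactate, lay at 908 and 1200 CPM in the B wt pair against 1543 and 1831 in the deltaPOZ pair, and at 653 and 635 in the T wt pair against 925 and 784 in the deltaPOZ pair. For both genes the deltaPOZ libraries lay above wt in each lineage, and B deltaPOZ was the highest group. The log2 fold changes in B were 0.68 for Pkm (SE 0.21, edgeR adjusted p = 0.317) and 0.68 for Ldha (SE 0.20, edgeR adjusted p = 0.31), and those in T 0.34 (SE 0.21) and 0.41 (SE 0.20). Against B, Ldha was lower in T (log2 -0.85, SE 0.14, edgeR adjusted p = 0.00596) and so was Pkm (log2 -0.57, SE 0.15, edgeR adjusted p = 0.0236).

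Ldhb, the subunit that favours the conversion of lactate to pyruvate, was the member with the widest genotype difference, and it lay in T. It stood at 13.6 and 13.5 CPM in T wt and at 0.898 and 0.298 CPM in T deltaPOZ. In B it lay near the detection limit, at 0.152 and 0.445 CPM in wt and 0.156 and 0.0598 CPM in deltaPOZ, where a count of 0 allows up to 0.0529 to 0.0677 CPM (3 counts a library, counting error only). T wt thus held all the high values, and T deltaPOZ overlapped B. The log2 fold change in T was -4.50 (SE 0.83, unadjusted p = 0.00109, edgeR adjusted p = 1, limma-voom adjusted p = 0.375, DESeq2 adjusted p = 2.63e-06). The difference from the B effect was -3.06 (SE 1.13, edgeR adjusted p = 0.746). Over both genotypes Ldhb was higher in T (log2 3.97, SE 0.60, edgeR adjusted p = 0.00405), and T deltaPOZ against B deltaPOZ was not tested alone. In T wt, Ldhb was 4.2 and 4.28% of lactate dehydrogenase RNA per kb, and Ldha made up at least 95.7% in every library.

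The other enzymes differed less. Gpi1, glucose-6-phosphate isomerase, lay at 329 to 491 CPM in B and 336 to 425 in T, and Aldoa, the main aldolase, at 246 to 401 in B and 314 to 495 in T. Neither passed between lineages (log2 -0.07 and 0.14). Gapdh lay at 194 to 317 CPM in B and 254 to 360 in T, and was the abundant enzyme with a positive lineage difference that came nearest to the threshold (log2 0.35, SE 0.14, edgeR adjusted p = 0.0971). The Gapdh level is uncertain: 78 other annotated genes, 75 of them pseudogenes, share at least 200 bases with its transcripts at 95% identity or more, and alignments that were not unique were counted apart. Bnip3 had 5 such genes, Ldha and Pgk1 4 each and Eno1 3. Pfkp had 1, which reached 267 CPM in a library, beside a mean of 215 CPM for Pfkp itself. The genes like Gapdh together reached 26.8 CPM at most. The level of Pfkp is therefore uncertain too. Pgk1, phosphoglycerate kinase, lay at 219 to 327 CPM in B and 176 to 230 in T (log2 -0.42, SE 0.13, edgeR adjusted p = 0.0467), and it is X-linked. Aldoc lay at 1.62 to 3.87 CPM in B and 0.843 to 1.86 in T (log2 -1.32, SE 0.39, edgeR adjusted p = 0.0396). Eno3, the muscle enolase, lay at 6.78 to 26 CPM and Eno2, the neuronal one, at 0.0569 to 2.27, and neither passed.

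Summed over the 19 enzyme genes, the level was 4208 and 4923 CPM in the B wt pair against 6873 and 7228 in the deltaPOZ pair, and 3650 and 3472 in the T wt pair against 4679 and 3920 in the deltaPOZ pair. The deltaPOZ libraries lay above wt in both lineages. The ratio of deltaPOZ to wt was 1.54 in B and 1.21 in T, and that of B to T was 1.48 (1.39 on unscaled totals). By step, the ratio in B ran from 1.24 for aldolase to 2.2 for enolase. In T it ran from 0.762 for hexokinase to 1.57 for triosephosphate isomerase, with 1.04 for phosphofructokinase, so not every step was higher there. Myc moved with the enzymes by lineage: it lay at 380 and 265 CPM in the B wt pair against 473 and 525 in the deltaPOZ pair. In T, Myc lay at 125 and 83.2 CPM in the wt pair against 104 and 76.2 in the deltaPOZ pair, with overlap. Markers of several cell types moved with genotype as well. Those of B cells summed to 2868 and 2309 CPM in the B wt pair against 1918 and 1818 in the deltaPOZ pair. Neutrophil markers summed to 125 and 746 against 54.7 and 60.4. The stroma and endothelium list summed to 191 in each wt library against 102 and 129, but Pecam1 held most of every sum (184 and 121 against 68.7 and 111). Cdh5 was higher in wt too, at 0.475 and 2.25 against 0.449 and 0.319. The collagen genes of that list overlapped, for example Col3a1 at 2.01 and 26.5 against 16.7 and 7.22. A shift of stroma or endothelium with genotype is therefore not shown. In T, the T cell markers summed to 3645 and 4839 CPM in the wt pair against 2447 and 3302 in the deltaPOZ pair. Within that list, Cd4 lay at 331 and 432 CPM against 98.8 and 118. Thy1 went the other way, at 164 and 200 against 214 and 287, and Cd3g overlapped. Platelet markers summed to 6.74 and 14.9 CPM in T wt against 20.2 and 35.6 in T deltaPOZ. Those of macrophages and monocytes summed to 196 and 275 against 330 and 395. Within that list Lyz2, Csf1r, Adgre1, Cd68 and Marco were higher in both T deltaPOZ libraries. C1qa, C1qb, C1qc, Vcam1 and Fcgr1 overlapped, for example Vcam1 at 66.3 and 118 against 84.1 and 163. The part of Myc and of these cell types in the enzyme levels was not tested.

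**Figure D4:**
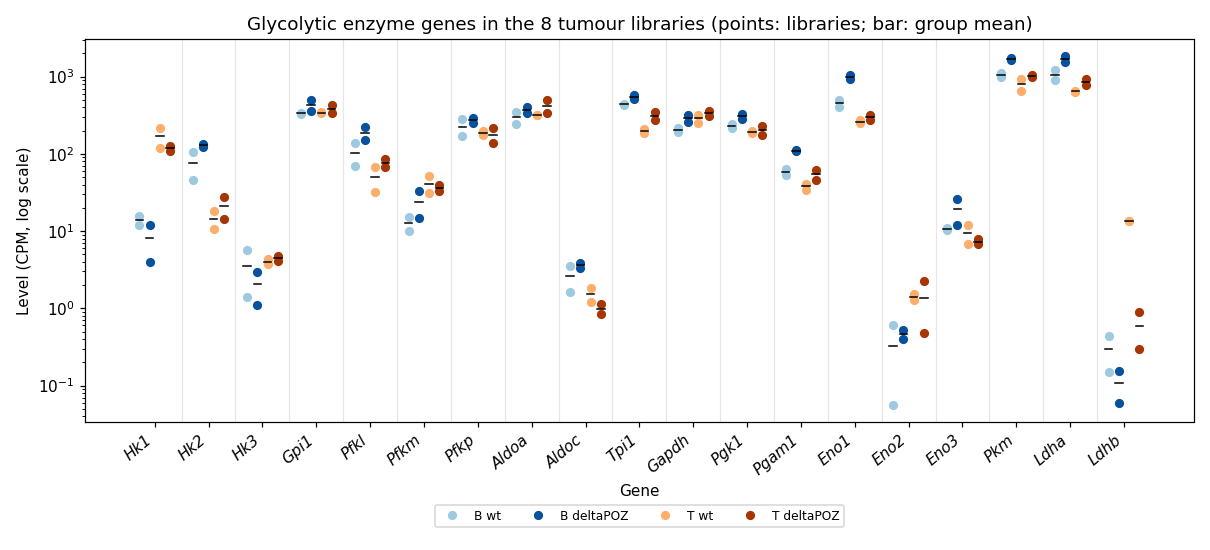
Level of each of the 19 enzyme genes (y axis, CPM on a log scale) in the 8 libraries; points are libraries, short bars group means, colours the 4 groups. B deltaPOZ holds the highest points for Eno1, Pkm and Ldha, Hk1 and Hk2 part the lineages in opposite directions, and Ldhb is high in T wt alone.

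Among the transporters, Slc2a1 (GLUT1, the basal glucose carrier) parted the lineages. It lay at 20.7 and 24.9 CPM in the B wt pair against 41.9 and 27.4 in the deltaPOZ pair, and at 13, 8.89, 15.3 and 10.8 CPM in the T libraries. Every B library lay above every T library, and Slc2a1 was 2.35-fold lower in T (log2 -1.23, SE 0.24, edgeR adjusted p = 0.00979). Slc2a3 (GLUT3, the high-affinity carrier) lay at 43.2 to 92.7 CPM in B and 61.5 to 72.9 in T (log2 0.03, SE 0.19). Of the glucose carrier RNA per kb, Slc2a1 thus made up 37.9 to 57.2% in B and 22 to 30.4% in T.

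Slc16a1 (MCT1), which carries lactate and pyruvate, was as abundant as the main enzymes. It lay at 1030 and 1014 CPM in the B wt pair against 770 and 708 in the deltaPOZ pair, with no overlap, and at 624 and 924 in the T wt pair against 752 and 1071 in the deltaPOZ pair, which overlapped. In B its log2 fold change was -0.47 (SE 0.25, edgeR adjusted p = 0.496), below the median of 0.23 of its neighbours within 10 Mb. Slc16a3 (MCT4), the exporter typical of hypoxic and strongly glycolytic cells, lay at 1.16 to 11 CPM over all libraries, with the highest value in B deltaPOZ 1. Slc16a1 made up at least 98.8% of their summed RNA per kb in every library.

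The PFKFB enzymes set the level of fructose-2,6-bisphosphate, which activates phosphofructokinase. Pfkfb3, the form with the strongest kinase activity, lay at 75.4 and 76.2 CPM in the B wt pair against 57.7 and 65.5 in the deltaPOZ pair, and at 28 and 21.6 in the T wt pair against 19.8 and 13.9 in the deltaPOZ pair. It was the single member whose deltaPOZ libraries lay below wt without overlap in both lineages, and the lineages did not overlap. Pfkfb3 was 3.34-fold lower in T (log2 -1.74, SE 0.18, edgeR adjusted p = 0.00117), while its mean genotype effect was -0.43 (SE 0.17, edgeR adjusted p = 0.56). Its share of the family per kb was 77.5 to 86.7% in B and 36.6 to 51.4% in T. Pfkfb2 lay at 7.18 to 11.8 CPM in B and 7.79 to 14 in T, and Pfkfb4 at 2.33 to 5.07 and 4.16 to 9.56, and neither passed.

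The pyruvate dehydrogenase kinases inhibit pyruvate dehydrogenase and so limit the use of pyruvate in mitochondria. Pdk1 lay at 254 and 193 CPM in the B wt pair against 255 and 338 in the deltaPOZ pair, and at 192 and 171 in the T wt pair against 170 and 152 in the deltaPOZ pair. The deltaPOZ libraries were above wt in B and below wt in T, each by a narrow gap. Pdk1 was lower in T (log2 -0.59, SE 0.15, edgeR adjusted p = 0.0245). Pdk3, which is X-linked, lay at 33.1 to 57.5 CPM in all libraries (log2 0.20, SE 0.17).

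The hypoxia genes did not move as a block. Vegfa, the angiogenic factor, lay at 26.4 and 23.2 CPM in the B wt pair against 18.6 and 29.1 in the deltaPOZ pair, and at 1.99, 3.39, 2.18 and 6.1 CPM in the T libraries. Bnip3, a mitochondrial protein of mitophagy, lay at 18.9 and 16.3 CPM in the B wt pair against 6.14 and 9.11 in the deltaPOZ pair, and at 1.13, 1.23, 0.971 and 2.32 CPM in T. For both genes every B library lay above every T library. Vegfa was 7.29-fold lower in T (log2 -2.87, SE 0.40, edgeR adjusted p = 0.00324) and Bnip3 8.3-fold lower (log2 -3.05, SE 0.36, edgeR adjusted p = 0.00189). Within B tumours the Bnip3 value was -1.21 on the log2 scale (SE 0.48, edgeR adjusted p = 0.397).

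Egln1 and Egln3, prolyl hydroxylases that sense oxygen and are themselves HIF targets in many cells, pointed the other way, and the related Egln2, read from the list of HIF regulators, did not pass (log2 -0.32, SE 0.24, edgeR adjusted p = 0.329). Egln3 (PHD3) lay at 0.304 and 0.778 CPM in the B wt pair against 0.078 and 0.239 in the deltaPOZ pair, 13 and 12.4 in the T wt pair against 6.14 and 22.6 in the deltaPOZ pair. Egln1 (PHD2) lay at 29.8, 54.6, 22.8 and 47.9 CPM in the B libraries and 64.2, 86.6, 72.5 and 84.1 in the T libraries. All T libraries lay above all B libraries for both genes. Egln3 was higher in T by 5.52 on the log2 scale (SE 0.66, edgeR adjusted p = 0.00189) and Egln1 by 0.99 (SE 0.30, edgeR adjusted p = 0.0414). Per kb, Egln3 made up 0.46 to 1.89% of the pair in B and 10.3 to 26.6% in T.

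Hif1a itself, the oxygen-regulated subunit, lay at 170 and 124 CPM in the B wt pair against 96 and 67.6 in the deltaPOZ pair, and at 140 and 143 in the T wt pair against 156 and 151 in the deltaPOZ pair. The deltaPOZ libraries lay below wt in B and narrowly above wt in T. The log2 fold change in B was -0.85 (SE 0.23, unadjusted p = 0.00868, edgeR adjusted p = 0.29), and the 129 tested genes within 10 Mb had a median of -0.38. Ddit4 (REDD1, a brake on mTORC1) lay at 34.9, 12.4, 6.44 and 12.9 CPM in the B libraries and 31.8, 40.9, 24.9 and 83.6 in T, with overlap, and did not pass between lineages (log2 1.55, SE 0.50, edgeR adjusted p = 0.0503). Ankrd37, a small ankyrin protein, lay at 8.9 and 8.1 CPM in the B wt pair against 16.1 and 15.8 in the deltaPOZ pair (log2 0.91, SE 0.36, edgeR adjusted p = 0.4). Higd1a, a mitochondrial protein, lay at 19.1 to 29.9 CPM in all libraries.

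**Figure D5:**
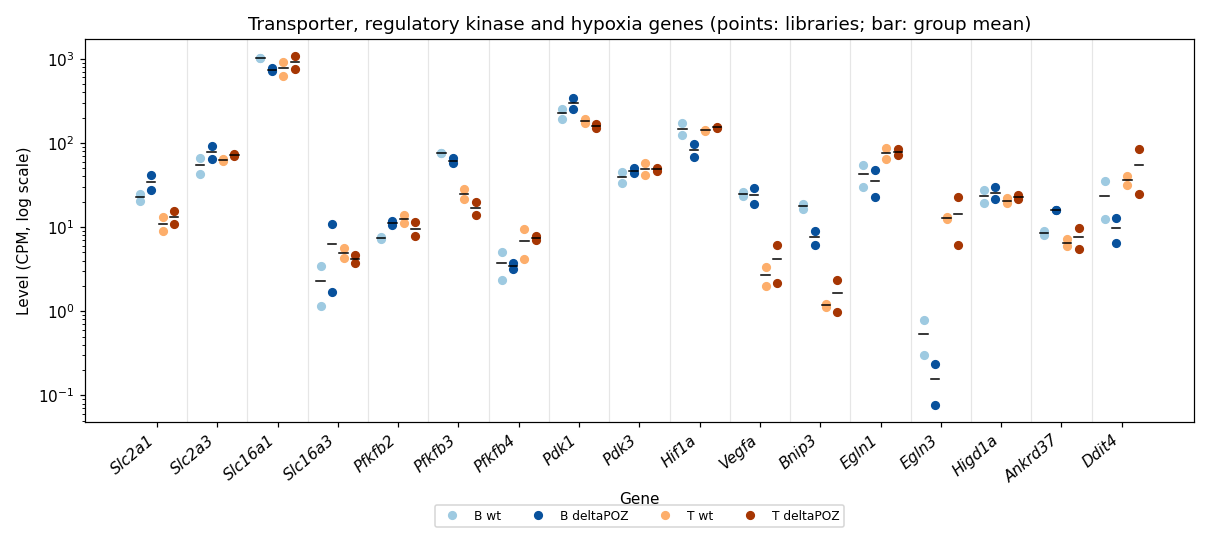
Level of the transporter, regulatory kinase and hypoxia genes (y axis, CPM on a log scale) in the 8 libraries; points are libraries, short bars group means, colours the 4 groups. Vegfa, Bnip3, Pfkfb3 and Slc2a1 are higher in every B library, Egln1 and Egln3 in every T library.

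Other genes of these pathways were read from 5 lists with 102 genes, of which 90 were tested. Between T and B, 16 were higher (19.3% of all genes were) and 14 lower (16% of all genes) in T at an adjusted p under 0.05 in edgeR. Between genotypes edgeR called 0 in B or in T. At an unadjusted p under 0.05 stood 10 in B, where 12.1% of all genes did, and 1 in T, where 2.65% did. Of the other glycolysis genes, 6 of 21 tested were higher and 3 lower. Pklr, the pyruvate kinase of liver and red cells, lay at 11.3 to 27.1 CPM in T and at 0 to 0.0199 CPM in B, and Slc2a4 (GLUT4) at 6.54 to 32.8 CPM in T and 0 to 0.0222 in B. Bpgm, which makes 2,3-bisphosphoglycerate in red cells, was higher in T (log2 3.38, SE 0.42, edgeR adjusted p = 0.00216), and Gpd1l lower (log2 -1.99, SE 0.19, edgeR adjusted p = 0.00103). Pklr, Slc2a4 and Bpgm were highest in T wt 2, as the erythroid markers were, and the part of erythroid cells in their levels was not tested.

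Each list count that follows stands beside 19.3% of all genes higher in T and 16% lower. Of the pyruvate dehydrogenase and pyruvate carrier genes, 1 of 11 was higher and 3 were lower in T, among them Pdha1 (log2 -0.62, SE 0.11, edgeR adjusted p = 0.00622) and Pdp1 (log2 -1.48, SE 0.23, edgeR adjusted p = 0.00453). Of 10 pentose phosphate genes, 1 was higher and 3 were lower. Pgd, the decarboxylating dehydrogenase of that pathway, was lower in T by 1.03 on the log2 scale (SE 0.17, edgeR adjusted p = 0.00498). Of 11 HIF subunit and regulator genes, 2 were higher and 1 lower: Epas1 (HIF-2alpha) lay at 0.219 to 3.2 CPM in B and 23.9 to 33.3 CPM in T (log2 5.03, SE 0.75, edgeR adjusted p = 0.00399). Of 37 other hypoxia genes tested, 6 were higher and 4 lower. Plod2 lay at 28.5, 43.6, 0.66 and 58.5 CPM in the T libraries against at most 1.22 in B, Ndrg1 was 7.98-fold higher in T (log2 SE 0.71, edgeR adjusted p = 0.0183) and Car12 lower (log2 -1.88, SE 0.36, edgeR adjusted p = 0.00904). Plod2 passed as well (edgeR adjusted p = 0.0228), although T deltaPOZ 1 lay within the B range.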

How the data were processed

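The authors deposited a table of whole-number counts per gene for each library; per the submitters' processing notes, TopHat2 2.0.10, SAMtools, HTSeq and DESeq were used with mm10/GRCm38. The strand setting and the annotation release were not given in the sources used here. Gene names and exon lengths came from GENCODE M21. Counts on no feature (30.4 to 39.3% of each library) and ambiguous ones (0.471 to 0.554%) stayed out. Counts were scaled by trimmed mean of M values, filtered with filterByExpr and fitted with 1 mean per group in edgeR 4.0.16 (glmQLFit and glmQLFTest; residual degrees of freedom 4, biological coefficient of variation 0.45). Benjamini-Hochberg adjustment ran over 16456 genes with a threshold of 0.05. The contrast of T and B weights both genotypes equally. The SE is the size of the fold change over the root of F. Levels are CPM on the scaled total, and shares use CPM per kb of exon. DESeq2 1.42.0 and limma 3.58.1 (R 4.3.3), other filters and scalings, and leaving out libraries were alternatives. The code was tested on simulated counts.

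The members, lists and tests were chosen with earlier results of these data known. All members are named. Of each other list, up to 4 called genes by size with a group mean of at least 5 CPM were eligible, or the 2 with the smallest p where none was called. Figures used Python 3.11.15 with matplotlib 3.10.9.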

Additional observations from a re-analysis of the deposited data

Results flagged for a closer look

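For 2 members every deltaPOZ library lay on one side of wt in B and on the other side in T, a pattern seen in 4.64% of all tested genes. Pdk1 had a log2 fold change of 0.41 in B and -0.17 in T, a difference of -0.58 (SE 0.30, unadjusted p = 0.0995, edgeR adjusted p = 0.815). Hif1a had -0.85 in B and 0.12 in T, a difference of 0.97 (SE 0.33, unadjusted p = 0.0221, edgeR adjusted p = 0.731). Neither difference passed the test.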

How the results depend on the processing

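The number of members called between T and B was 19, and 12 to 17 with each library left out in turn (12 without T deltaPOZ 2); it was 8 without B wt 2, T wt 1 and T deltaPOZ 2 together. DESeq2 called 2 members in B (4.18% of all genes), 1 in T (0.298%) and 3 for the mean effect (1.93%), where edgeR called 0. Between T and B it called 22 members, beside 41.9% of all genes. The Eno1 fold change in B, 1.15 on the log2 scale, was 0.58 after the median of its neighbours within 10 Mb was taken off, and that of Hif1a, -0.85, was -0.47; the cause was not tested. The share of Slc16a1 in its family, T minus B, was -0.039 percentage points and ran from -0.284 to 0.0749 with each library left out in turn, so it has no stable sign. Exon lengths from the basic transcript set, chosen after the data were seen, turned the Pfkp share around, from a mean of 42.1% in B and 39.5% in T to 57.1 and 58.8% (61.0 and 64.2% without lengths), and no other isoenzyme share. They moved the mean shares of 5 genes by over 1.5 times: Pfkm from 11.7 to 5.82% in B and 33.8 to 18.1% in T, Eno3 from 6.24 to 3.39% in B and 8.46 to 4.65% in T, Hk1 from 8.37 to 12.8% in B, Hk2 from 14.7 to 9.81% in T and Slc2a1 from 26.7 to 17.7% in T. No paired analysis was possible because the labels carry no replicate numbers and each library came from a separate mouse. With 2 libraries a group, most 2-fold genotype changes simulated in genes drawn at random were not recovered.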

Other observations

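Outside the 36 genes, 30 of the 90 tested genes of the other lists lay higher in both B deltaPOZ libraries than in both B wt libraries, and 6 lay lower, beside 19.9 and 19.1% of all genes, and none passed. P4ha1, a collagen prolyl hydroxylase, lay at 26.3 and 32.8 CPM in B wt and 72.1 and 53.9 in B deltaPOZ (log2 1.09, SE 0.30, edgeR adjusted p = 0.295). Mt1, a metallothionein, lay at 38.7 and 35.2 CPM in B wt and 130 and 108 in B deltaPOZ (log2 1.68, SE 0.50, edgeR adjusted p = 0.304). Dlat, a subunit of pyruvate dehydrogenase, lay at 79.8 and 99.9 CPM in B wt and 145 and 121 in B deltaPOZ (log2 0.57, SE 0.20, edgeR adjusted p = 0.361). Pgd lay at 52.2 and 70.6 CPM in B wt and 91.1 and 99.2 in B deltaPOZ (log2 0.63, SE 0.23, edgeR adjusted p = 0.375), beside a median of 0.60 for its neighbours within 10 Mb. In the opposite direction, Slc2a9, a urate and sugar carrier, lay at 24.3 and 14.7 CPM in B wt and 9.93 and 7.44 in B deltaPOZ (log2 -1.17, SE 0.41, edgeR adjusted p = 0.363). In T, Adm lay at 8.72 CPM in T deltaPOZ 2 and at 0.111 to 0.165 CPM in the other 3 libraries.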
